A study of Mus musculus with 3 samples.

Results

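The replication-dependent histone genes are the genes whose symbols in the files start with Hist1h, Hist2h, Hist3h or Hist4h. By that rule 67 of the 32285 listed genes are members: 6 H1, 18 H2A, 18 H2B, 12 H3 and 13 H4 genes. Their unique molecular identifiers (UMIs, tags that count captured transcript molecules) were read in T cells from MC38 tumours, a mouse colon carcinoma line, in a study of LAG3-directed IL-2. Tumours were taken at day 15, after 5 days of treatment; cells were dissociated, sorted on CD3 and profiled by droplet 3′ single-cell RNA-seq. There was 1 library for each of the groups labelled PBS, mix and homo, so differences between libraries have no replicate check. The labels used here do not say what mix and homo contain, how many animals were pooled, or the age or sex of the mice.

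Histone proteins package DNA: H2A, H2B, H3 and H4 form the nucleosome core, and H1 binds the linker DNA between nucleosomes. Replication-dependent histone genes sit in clusters of near-identical copies, are transcribed mainly while DNA is copied, and supply histones to new chromatin. Their mRNAs usually end in a conserved stem-loop bound by SLBP rather than in a poly(A) tail, whereas the 3′ kit primes on A-rich sequence. UMIs here therefore count captured molecules and not all histone mRNA, and since 3′ tags are not divided by length, levels of different members also carry differences in capture.

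The stem-loop was searched in the annotated transcripts as a 16-base hairpin, GG in the first stem positions, 6 paired bases and a 4-base loop opening with T. It was found in the longest transcript of 45 members, and in Hist1h2bp only in another transcript. In any transcript, 690 of 55450 annotated genes (1.24%), members included, had it. The hairpin windows of the most abundant member of each family and of a second H4 gene are given in DNA letters, 5′ to 3′ from GENCODE M21, with the hairpin in capitals.

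Hist1h1e: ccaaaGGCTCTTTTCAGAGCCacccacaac
Hist1h2ae: acaaaGGCTCTTTTCAGAGCCattcactta
Hist1h2bj: ccaaaGGCTCTTTTCAGAGCCacgcacaat
Hist1h3e: aaaacGGCTCTTTTAAGAGCCacctccatt
Hist1h4d: ccaaaGGCCCTTTTCAGGGCCactaccttc
Hist1h4i: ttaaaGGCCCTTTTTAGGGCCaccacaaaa

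The stem differed by family. In 33 members of the H1, H2A, H2B and H3 families the hairpin opened with GGCTCT; in the 12 H4 members with a hairpin it opened with GGCCCT in 10 and with GGTCCT in 2. Of the 22 members without a hairpin in the longest transcript, several are annotated no farther than a coding-length model, as is Hist1h2bn with 381 bases. Absence of the hairpin therefore says only that these letters are not in the annotated transcript. Annotation beyond the hairpin went with higher counts: the 23 members annotated for at least 100 bases past it held 66.3% of histone UMIs, with a median of 822 UMIs a gene, while the 22 that end sooner held 14.6%, with a median of 208. The 22 members with no hairpin held 19.1%, with a median of 237.5. This split was chosen after the values were seen and is a description.

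Copies also differ in how far a read can be assigned. The share of 90-base windows found in no other annotated gene was under 20% in 13 members, which together held 4.93% of histone UMIs. It was at least 60% in 34 members, which held 79.7%. Hist1h2ap, an H2A gene with only 7.63% unique windows, still had 2902 UMIs, so its value cannot be separated from those of its near-identical copies. Among the named genes, Hist1h1e overlaps Hist1h2be on the same strand by 496 bases, and reads there cannot be told apart. It also overlaps the pseudogene Gm11398 by 320 bases. Hist2h2bb overlaps the lincRNA gene Gm42743 by 381 bases and Hist3h2a overlaps Trim17 by 2146, each on the same strand.

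**Figure D1:**
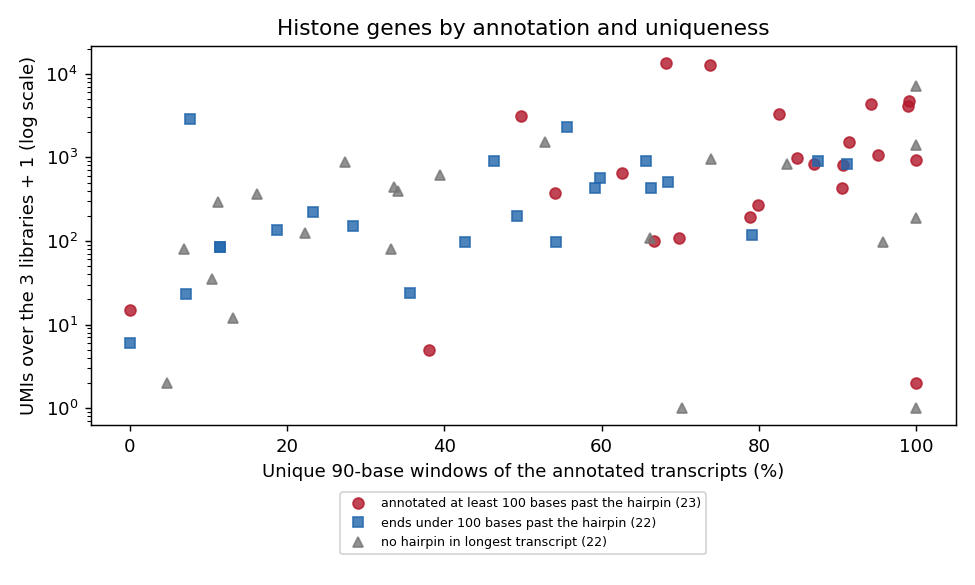
Each point is 1 of the 67 histone genes; the x axis gives the percent of 90-base windows that are unique to the gene and the y axis its UMIs over the 3 libraries plus 1, on a log scale, with symbols for annotation past the hairpin. Genes with few unique windows lie mostly low, with Hist1h2ap at 7.63% and 2902 UMIs as an exception.

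RefSeq promoters (GRCm38.p6, 250 bases before to 50 after the start) were matched for 61 members and searched on both strands. CCAAT was present in 52 of 61 (85.2%), against 37.4% of 32851 promoters of the same length. It was in each of the 49 H1, H2A, H2B and H3 promoters and in 3 of 12 H4 promoters. TATAAA was in 35 (57.4%) against 13.6%, and the octamer ATTTGCAT in 13 (21.3%) against 1.74%. The octamer occurred in 7 of 17 H2A and 6 of 16 H2B promoters and in no H1, H3 or H4 promoter. The E-box CACGTG was in none, against 7.15% of promoters. Printed next are a promoter with the octamer, Hist1h2ae at chr13:23571171-23571470 on the minus strand, and an H4 promoter, Hist1h4d at chr13:23581318-23581617 on the plus strand, with the 3 motifs found, CCAAT box, TATA box and octamer, in capitals on either strand.

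Hist1h2ae: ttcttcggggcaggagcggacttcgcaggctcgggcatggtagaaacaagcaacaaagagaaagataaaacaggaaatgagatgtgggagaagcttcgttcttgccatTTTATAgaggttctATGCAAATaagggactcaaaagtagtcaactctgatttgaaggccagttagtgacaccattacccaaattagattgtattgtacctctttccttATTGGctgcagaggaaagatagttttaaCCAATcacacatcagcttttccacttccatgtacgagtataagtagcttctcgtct
Hist1h4d: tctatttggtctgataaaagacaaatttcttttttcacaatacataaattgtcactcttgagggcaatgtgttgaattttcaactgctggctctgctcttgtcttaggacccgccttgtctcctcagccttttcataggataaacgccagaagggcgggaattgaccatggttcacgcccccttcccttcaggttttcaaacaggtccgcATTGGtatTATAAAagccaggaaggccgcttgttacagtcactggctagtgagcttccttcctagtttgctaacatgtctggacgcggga

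The Hist1h2ae window shares 279 bases with that of Hist1h2bg, an H2B gene that starts 180 bases away on the other strand. The TTTATA and ATGCAAAT marked for Hist1h2ae read TATAAA and ATTTGCAT along the strand of Hist1h2bg. A motif in such shared bases was counted for both genes in the promoter shares. Despite that shared DNA, the counts of the pair differed: 13386 UMIs for Hist1h2ae and 370 for Hist1h2bg, a ratio of 36.2. Hist1h2bj led the other way, with 2316 UMIs against 220 for its divergent neighbour Hist1h2ag. The near-balanced pair Hist1h2ak and Hist1h2bn had 836 and 608. Annotated 3′ ends differ within these pairs and their part in the ratios was not tested.

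The libraries held 8461 to 10351 barcodes and 49179708 to 65336646 UMIs, of which 7303 to 9214 cells were kept, with median depths of 4656 (PBS), 4964.5 (mix) and 6814 (homo) UMIs. CD3 transcripts were seen in 98.8% to 99.1% of kept cells. Between 74 and 101 kept barcodes were shared by any pair of libraries. Gated cells had a CD3 transcript: cells with Cd8a or Cd8b1 and neither Cd4 nor Foxp3 form the CD8 gate, with 7117, 5587 and 6517 cells in PBS, mix and homo. Foxp3-positive cells without Cd8a or Cd8b1 form the Foxp3 gate (842, 807 and 124), and Cd4-positive cells lacking the others the CD4 gate (317, 309 and 70). S-phase cells carried at least 3 UMIs of Rrm2 and Pclaf together, genes of nucleotide supply and of the PCNA clamp; no histone gene entered a gate. In S-phase cells of the CD8 gate, markers of other cell types were summed by list: the 6 macrophage and monocyte markers summed to 1.55 to 6.75 CPM (a gene's UMIs scaled to the same total in each group of cells), the 4 B-cell markers to 1.64 to 2.23, and the 4 tumour and epithelial markers to 1.24 to 7.18 with Krt8 and Krt19 at 0. The 3 NK markers (Ncr1, Klrb1c and Eomes, the last also a gene of CD8 T cells) stood higher, at 27.2, 26.3 and 24.8 CPM in PBS, mix and homo, with Ncr1 at 0 in PBS; their part in the results was not tested. The 3 neutrophil markers summed there to 0 to 0.10 CPM, with S100a8 and Csf3r at 0 in each library. The 4 fibroblast markers summed to 0.10 to 0.50 CPM, with Col3a1 at 0 in each library. The 4 dendritic markers summed to 0.50 to 0.62 CPM. In S-phase cells of the Foxp3 gate, in PBS, mix and homo, the macrophage and monocyte markers summed to 5.82, 29.1 and 0 CPM. The B-cell markers summed there to 9.70, 7.92 and 36.7 CPM, from 5, 3 and 2 UMIs. In other cells of that gate the macrophage and monocyte markers summed to 35.6, 31.8 and 0 CPM and the tumour and epithelial markers to 33.8, 35.2 and 35.4. Their part in the results was not tested.

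Over the kept cells the members had 81580 UMIs, 0.0508% (PBS), 0.0455% (mix) and 0.0637% (homo) of the total. Hist1h2ae, Hist1h1e and Hist1h1b alone gave 41.0% and the top 10 members 71.4%. At the other end, 6 members had under 10 UMIs: Hist2h2aa2 (5), Hist2h3c2 (4), Hist1h2bq (1), the testis H1 gene Hist1h1t (1), and Hist1h2ba and Hist1h2aa, the testis H2B and H2A genes, with 0. Histone UMIs were concentrated in few cells. The S-phase gate held 5.76%, 5.51% and 10.1% of kept cells in PBS, mix and homo, and 65.9%, 59.8% and 70.2% of their histone UMIs.

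For S-phase cells of the CD8 gate the summed histone level was 2872, 2459 and 2370 CPM in PBS, mix and homo. Other cells of the gate had 186, 196 and 230 CPM. Each summed S-phase value lay above each summed value of other cells. Single cells of the 2 states did overlap, with up to 67, 53 and 49 histone UMIs in other cells. The log2 ratio of the summed levels was 3.66 ± 0.29 (SD, n = 3 libraries), a 12.6-fold difference. These values rest on 451, 354 and 657 S-phase cells and on 6666, 5233 and 5860 others. Of the 67 members, 56 were higher in S-phase cells and 0 lower by edgeR's quasi-likelihood test with library as a block, at an adjusted p under 0.05 over the 12943 genes tested. The background of such higher calls was 22.0% of genes tested, and 2721 of the 12943 genes were called lower. Of the members, 59 passed the low-count filter. Hist1h4n, Hist3h2a and Hist1h4m were tested and not called, and 8 members were too low to test. The libraries were treated differently. The block takes up their levels, so the test rests on how the difference between states varies among them.

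Among H1 genes, edgeR's log2 fold changes ran from 2.05 to 6.47. Hist1h1b stood at 373, 312 and 275 CPM in S-phase cells of PBS, mix and homo and at 2.87, 3.08 and 4.69 in others, a log2 ratio of 6.52 ± 0.59 (SD, n = 3). Hist1h1a, at 68.5, 61.4 and 55.5 against 1.08, 1.21 and 1.11 CPM, gave an edgeR log2 fold change of 5.77 (adjusted p = 8.16e-11). Hist1h1d stood between, at 159, 121 and 122 against 8.02, 8.38 and 11.5 CPM. The other linker genes kept a sizeable level outside S phase. Hist1h1e stood at 361, 253 and 275 CPM in S-phase cells and at 41.7, 43.4 and 59.2 in others, a ratio of 2.62 ± 0.45 on the log2 scale. Hist1h1c stood at 96.8, 77.0 and 71.2 against 17.4, 19.0 and 22.4 CPM, with an edgeR log2 fold change of 2.05 (adjusted p = 1.71e-07). In every library both of these rose in S-phase cells by less than Hist1h1b, Hist1h1a and Hist1h1d did.

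Among H2A genes, Hist1h2ae was the most abundant member in S-phase cells, at 659, 531 and 529 CPM against 9.40, 7.62 and 11.8 in others. Its log2 ratio was 5.92 ± 0.37 (SD, n = 3), and edgeR gave 5.90 (adjusted p = 7.33e-11). Hist1h2ap, the gene with few unique windows, stood at 114, 131 and 131 against 1.68, 1.81 and 1.62 CPM, and had the smallest p of any member (log2 fold change 6.20, adjusted p = 1.80e-11). Its S-phase values were near-equal in mix and homo and lowest in PBS. As a family, H2A rose most, by 5.38 ± 0.35 on the log2 scale, from 20, 17.9 and 26.1 CPM to 956, 860 and 824.

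H2B genes rose by 3.21 ± 0.19 as a family. Hist1h2bj, the H2B gene with most UMIs, stood at 85.1, 54.0 and 71.5 CPM in S-phase cells and at 5.37, 3.84 and 5.08 in others (log2 fold change 3.88, adjusted p = 2.08e-10). Some H2B genes rose less: Hist3h2ba read 11.3, 10.2 and 18.8 against 7.77, 7.59 and 11.4 CPM, and Hist1h2bc 10.4, 14.1 and 6.73 against 4.35, 9.14 and 4.47. Both were called higher, with log2 fold changes of 0.61 and 0.81 (adjusted p = 0.00254 and 0.00243); these members were singled out after their values were seen.

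H3 rose by 3.75 ± 0.31 and H4 by 2.41 ± 0.13 on the log2 scale. Hist1h3e stood at 93.9, 86.5 and 96.9 CPM in S-phase cells and at 7.06, 7.65 and 9.72 in others, a log2 ratio of 3.52 ± 0.21. Hist1h4d stood at 144, 124 and 116 against 16.5, 16.3 and 15.3 CPM (per-library log2 ratio 2.99 ± 0.12, edgeR adjusted p = 2.59e-10). Hist1h4i had 58.3, 52.8 and 69.6 against 14.1, 14.5 and 15.5, a log2 ratio of 2.03 ± 0.15. Hist4h4, outside the main cluster, had 9.41, 9.41 and 10.9 against 6.23, 5.81 and 7.40, a log2 ratio of 0.62 ± 0.07. H4 thus made up a larger part of histone UMIs in other cells (27.0%, 27.1% and 23.3%) than in S-phase cells (10.4%, 10.9% and 11.4%), and H2A a smaller one (10.8%, 9.15% and 11.4% against 33.3%, 35.0% and 34.8%).

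**Figure D2:**
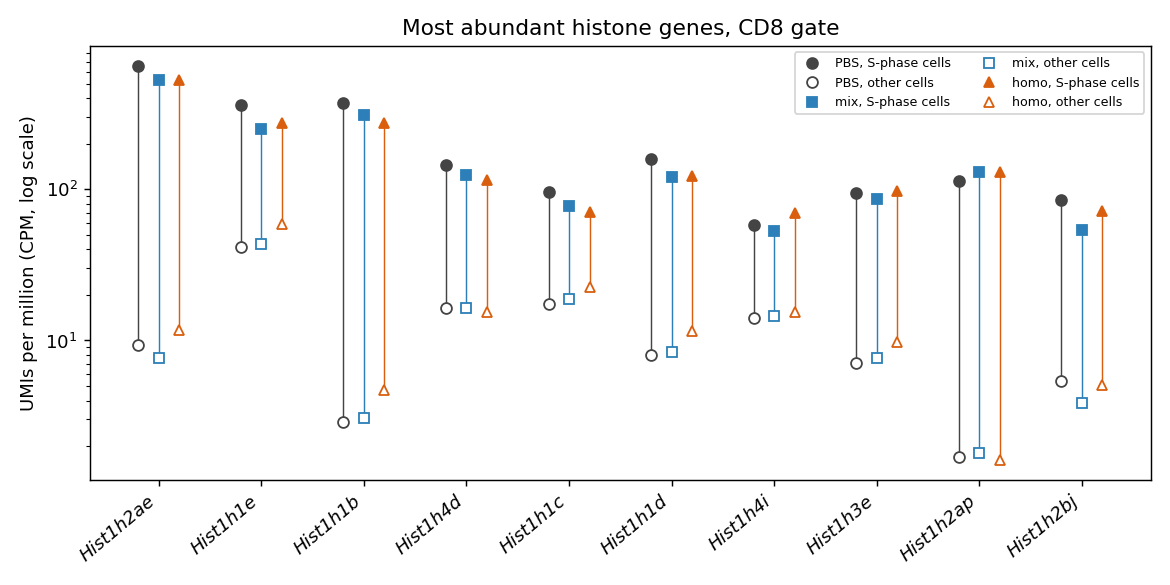
Levels of the 10 most abundant histone genes in the CD8 gate, in CPM on a log scale; filled symbols are S-phase cells and open symbols other cells, joined within each library. Each gene is higher in S-phase cells in the 3 libraries, with the longest distances for Hist1h1b, Hist1h2ap and Hist1h2ae and the shortest for Hist1h4i and Hist1h1c.

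Other gene groups of the same cells give the setting. DNA replication genes were higher in S-phase cells for 28 of 28 listed, with a median log2 fold change of 2.64; the histone members tested had 3.51 and all genes tested -0.05. Dut, which clears dUTP, and the clamp Pcna had log2 fold changes of 2.01 and 2.25. Of 22 genes for synthesis and processing of histone mRNA, 14 were higher and 3 lower (median 0.54). Slbp, the stem-loop binding protein, read 344, 339 and 260 CPM in S-phase cells against 109, 115 and 83.1 in others (log2 fold change 1.63, adjusted p = 3.89e-09). Eri1, an exonuclease that trims histone mRNA ends, and Casp8ap2, a component of histone locus bodies, had log2 fold changes of 1.54 and 1.18. Of 23 listed chaperone genes 19 were higher and 1 lower (median 1.21), among them Nap1l1 at 1.25. The replication-independent histones, whose mRNAs have poly(A) tails, differed in size: 9 of 10 tested (12 listed) were higher, with a median of 1.15. H2afz, the H2A.Z gene, had a log2 fold change of 2.06, and H3f3b, an H3.3 gene at 1748, 1530 and 1127 CPM already in other cells, one of 0.28. For the mitosis list 20 of 20 were higher, with a median of 3.89; 231, 175 and 406 of the S-phase cells also passed the mitosis gate described further on.

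**Figure D3:**
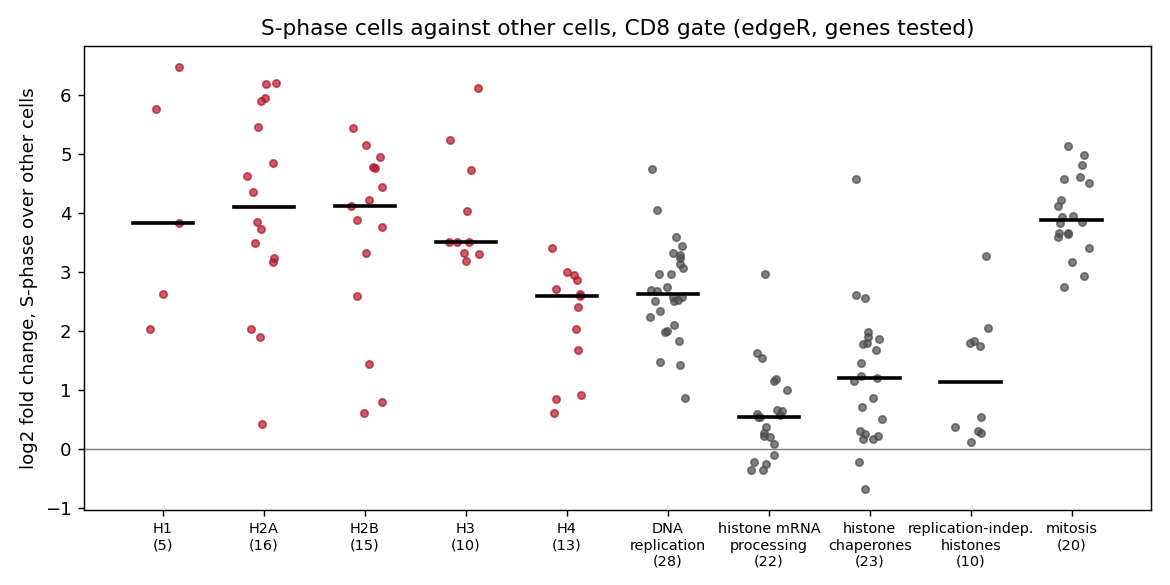
edgeR log2 fold changes of S-phase over other CD8-gate cells; each point is 1 gene tested, black bars are medians, and the number of genes tested is in brackets. H1 reaches 6.47 with Hist1h1b, no H4 gene lies above 3.42, and the histone mRNA synthesis and processing list has a median of 0.54.

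The level followed the number of gate UMIs. With 0 Rrm2 and Pclaf UMIs the summed histone level was 174, 185 and 212 CPM in PBS, mix and homo. At 1 UMI it was 262, 233 and 291, and at 2 it was 472, 481 and 430. In cells with 3 to 5 it was 1086, 692 and 776, and with 11 or more 3694, 3208 and 3214. Each step was upward in each library, and depth moved with it: median UMIs a cell went from 4862, 5313 and 6324.5 in the lowest bin to 11120, 12187 and 14649 in the highest, although CPM is scaled to the total of each bin. The part of depth in the order was not tested.

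S-phase cells differed widely from each other. In PBS their median was 23 histone UMIs a cell and the highest 306; in mix 17 and 233, and in homo 24 and 199. At most 5 histone UMIs were found in 25.1%, 33.3% and 27.1% of S-phase cells, and at least 100 in 3.55%, 1.69% and 5.02%. Some cells in the gate therefore carried few histone transcripts at this depth.

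Dividing the CD8 gate by a mitosis gate as well (at least 3 UMIs over Ccnb1, Cdc20, Cenpf, Plk1, Aspm and Hmmr) ordered the level further. Cells in both gates had 4093, 3713 and 2976 CPM, cells in the S-phase gate only 1398, 1112 and 1263, in the mitosis gate only 775, 577 and 523, and in neither 175, 188 and 217. That order held in the 3 libraries without overlap. Cells of both gates exceeded S-phase-only cells by 1.51 ± 0.25 (SD, n = 3) on the log2 scale. Both groups were chosen by cell-cycle UMIs, and cells in both gates were deeper, with 11244 against 9416 median UMIs in PBS. In the Foxp3 gate the order of these 2 groups was the reverse in each library. S-phase-only cells had 2872, 2943 and 6042 CPM and cells of both gates 2647, 2064 and 3871. Those values rest on 16, 12 and 2 cells against 26, 17 and 3.

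Against cells in the mitosis gate only, 24 of the 67 members were higher in S-phase-only cells and 2 lower by edgeR, over 9479 genes tested. The backgrounds were 16.6% higher and 13.3% lower; 34 members passed the low-count filter. Hist1h1b read 177, 148 and 141 CPM in S-phase-only and 32.0, 18.2 and 33.5 CPM in mitosis-only cells (log2 fold change 2.41, adjusted p = 6.65e-15). Hist1h1a read 43.8, 30.8 and 36.0 against 0, 6.06 and 2.35, with a fitted log2 fold change of 3.79 (adjusted p = 2.35e-10) that leans on few mitosis-gate UMIs. For Hist1h2ae it was 1.97, for Hist1h2ap 2.40 and for Hist1h1d 1.36. DESeq2 called 14 members higher in place of 24, against 594 of 9479 genes. Without homo, 16 of 31 members tested were higher and 4 lower by edgeR, against 1345 and 1102 of 8597 genes.

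In the other direction, Hist1h2bc was higher in mitosis-only cells. It read 44.1, 81.8 and 20.6 CPM there and 9.94, 9.76 and 4.98 in S-phase-only cells, a log2 fold change of -2.42 (adjusted p = 7.54e-10). Hist4h4 read 25.9, 27.3 and 14.1 against 5.87, 7.71 and 9.08 (-1.34, adjusted p = 0.00109). Neither overlapped between the groups. Hist1h1c and Hist1h4i were not called: 0.21 (adjusted p = 0.364) and -0.10 (adjusted p = 0.721). H4 and H2B as families gave log2 ratios of 0.21 ± 0.42 and 0.25 ± 0.54, under their own spread, while H2A gave 1.78 ± 0.33 and H1 1.44 ± 0.19.

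**Figure D4:**
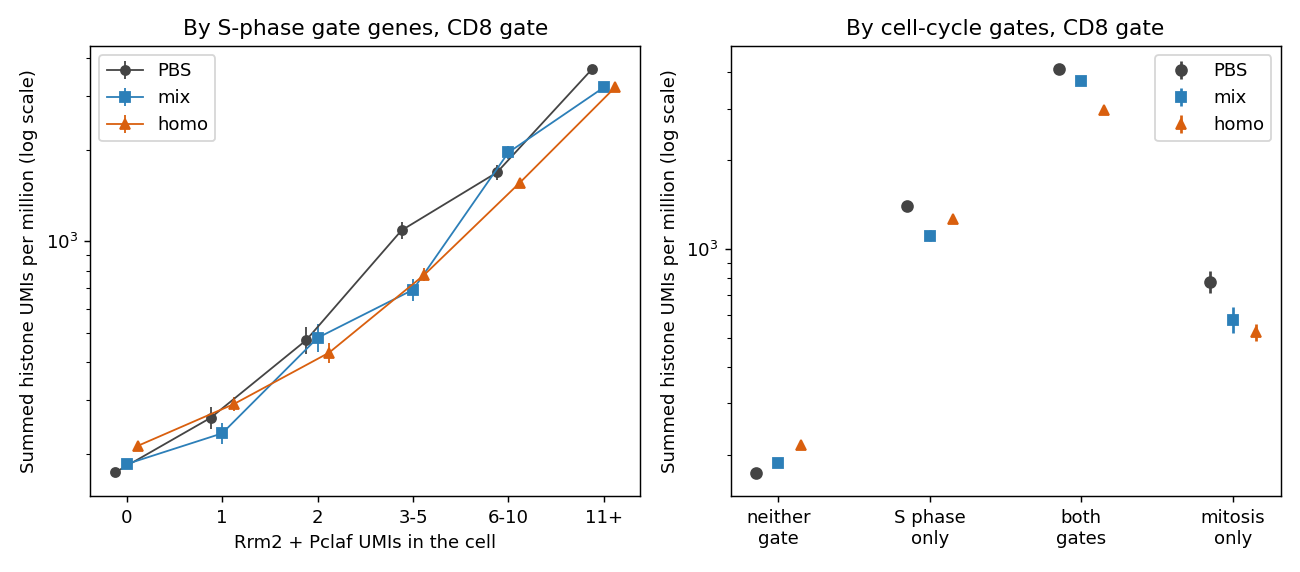
Summed histone CPM (log scale) in the CD8 gate, on the left by Rrm2 plus Pclaf UMIs in the cell and on the right by cell-cycle gate; error bars are exact Poisson 95% intervals, which cover counting error only. Levels rise from 174 to 212 CPM in the lowest bin to 3208 to 3694 in the highest, and cells in both gates stand above those in the S-phase gate only, the mitosis gate only and neither.

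Outside S phase histone UMIs were spread thinly, with a median of 1 UMI a cell in each library. A histone UMI was seen in 96.7%, 93.2% and 97.0% of S-phase cells of the CD8 gate in PBS, mix and homo, at median depths of 10338, 10703 and 13630 UMIs. In other cells of the gate the shares were 51.8%, 57.6% and 66.5%, at 4953.5, 5454 and 6533.5 median UMIs. After thinning each cell to 2000 UMIs, 80.0%, 74.8% and 76.5% of S-phase cells had one, against 27.5%, 30.0% and 33.4% of others. For Hist1h2ae the thinned shares were 50%, 43.3% and 46.0% in S-phase cells and 1.58%, 1.42% and 2.07% in others. Free RNA can give such UMIs in cells that do not express a gene, and its part in the shares outside S phase was not tested. Intervals and floors cover counting error only.

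In the Foxp3 gate, the regulatory T cell gate, histone levels were 2722, 2393 and 4630 CPM in S-phase cells and 279, 258 and 274 in others. The homo S-phase value rests on 5 cells, against 42 in PBS and 29 in mix. Of the 67 members, 19 were higher and 0 lower by edgeR. Only 19 passed the filter, and 18.8% of the 6574 genes tested were called higher and 940 genes lower. A member can pass this filter through its S-phase counts alone, so a lack of lower calls is partly set by the filter. Without the filter, 59 members were tested, with 37 higher and 0 lower, against 1165 higher and 1125 lower of 15893 genes. Without homo, 32 of 35 members tested were higher, against 1715 of 9097 genes. Hist1h2ae read 646, 644 and 1304 CPM against 15.6, 14.3 and 7.08 (log2 fold change 5.70, adjusted p = 9.57e-13), and Hist1h1b 303, 312 and 331 against 8.89, 4.97 and 14.2 (5.42, adjusted p = 3.84e-12). Hist1h2ap, Hist1h4d and Hist1h2bj, the next by p, had log2 fold changes of 5.98, 3.53 and 3.35.

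Set directly against S-phase cells of the CD8 gate, those of the Foxp3 gate differed in 0 members higher and 0 lower by edgeR, against backgrounds of 5.52% higher and 6.81% lower over 9784 genes. At an unadjusted p under 0.05 there were 5 of the 46 members tested, against a larger share of all genes, 2203 of 9784. DESeq2 had 1 member at that limit and called 0. The 5 members by edgeR were Hist1h2bj, Hist1h3c and Hist1h3h, higher, and Hist1h1a and Hist2h4, lower. With 5 homo cells in 1 arm, a missed threshold does not show that the gates are alike. Without homo, 1 member was called higher and 3 lower, against 765 and 870 of 9582 genes.

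A test of the difference in S-phase effect between the gates called 0 members with a larger effect in the Foxp3 gate and 1 with a smaller one, against backgrounds of 0.874% and 1.55% over 11094 genes. That member was Hist1h1e, at -0.94 on the log2 scale (adjusted p = 0.0270). Its levels were 252, 211 and 459 CPM in Foxp3-gate S-phase cells and 80.0, 69.6 and 104 in the others, the latter above the 41.7, 43.4 and 59.2 of the CD8 gate in each library. The call was lost without PBS (-0.68), without mix (-0.90), without the library block (-0.92) and with the S-phase gate at 2 UMIs (-0.77). Without homo, 4 members had a smaller effect, Hist1h1e among them (-1.19), against 440 of 10871 genes. The CD4 gate held only 2, 6 and 2 S-phase cells and was not tested; their summed levels were 4488, 3505 and 2659 CPM.

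Between libraries, ratios have exact conditional 95% intervals for counting error only and no test, and the homo and mix ratios share the PBS library. The share of CD8-gate cells in the S-phase gate was 6.34% (PBS), 6.34% (mix) and 10.1% (homo). After thinning to 2000 UMIs it was 3.44%, 2.74% and 3.63% at the same cutoff, and 7.74%, 7.41% and 11.5% at 1 UMI, so the size of the homo difference depends on the cutoff.

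Within CD8-gate S-phase cells the summed histone level was 1.21-fold lower in homo than in PBS (log2 ratio -0.28, interval -0.31 to -0.25) and 1.17-fold lower in mix (-0.22, -0.26 to -0.19); homo over mix was -0.05 (-0.09 to -0.02). These sums are not independent of which S-phase cells each library holds. Within S-phase-only cells homo over PBS was -0.15 and mix over PBS -0.33, and within cells of both gates -0.46 and -0.14. Where the gate was read from cells thinned to 2000 UMIs, homo over PBS was -0.03 and mix over PBS -0.10. These splits were added after the data were seen.

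At 1.5-fold and at least 20 CPM in either library, homo over PBS had 0 members higher and 4 lower of the 67, with 23 members above the minimum; 2.54% and 5.62% of genes were so called. The 4 were Hist1h3i (41.9 against 21.8 CPM, log2 -0.94, -1.23 to -0.66), Hist1h2bn (31.7 against 17.1, -0.89), Hist2h2bb (62.2 against 37.7, -0.72) and Hist1h3c (25.0 against 14.9, -0.74), each with PBS first. Hist1h3i and Hist1h2bn have 27.3% and 39.4% unique windows, and Hist2h2bb overlaps Gm42743 on the same strand. Among members above the minimum Hist1h2ab (33.8 and 44.4 CPM, log2 0.40), Hist1h4i (0.26) and Hist1h2ap (0.20) lay farthest above 0, under the fold used.

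Mix over PBS had 1 member higher and 1 lower, against 0.815% of genes higher and 0.815% lower, with 25 members above the minimum. Hist1h2an was higher, at 27.7 against 17.4 CPM (log2 0.67, 0.25 to 1.10), and Hist1h2bj lower, at 54.0 against 85.1 (-0.66, -0.90 to -0.42). Next stood Hist1h2af (0.57) and Hist1h2ap (0.20) above 0, and Hist1h1e (-0.51) and Hist1h2ae (-0.31) below. Homo over mix had 0 higher and 3 lower, against 2.70% and 5.88%: Hist1h2an (-1.74, 8.28 against 27.7 CPM), Hist1h2bn (-0.97) and Hist1h2af (-0.82). Hist1h2bj (0.41), Hist1h4i (0.40) and Hist1h2ab (0.44) lay above 0 there.

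Neighbouring groups in the same S-phase cells give the scale of these ratios. The DNA replication list had a median log2 ratio of -0.43 in homo over PBS with 5 of 28 lower at 1.5-fold, and -0.09 with 0 of 28 in mix over PBS. Mcm6, a helicase subunit, and Tyms, which makes dTMP, had -0.33 and -0.43 in homo over PBS, and Slbp -0.40. Over all genes above the minimum the medians were -0.07 and 0.00, and over the histone members -0.31 and -0.19.

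**Figure D5:**
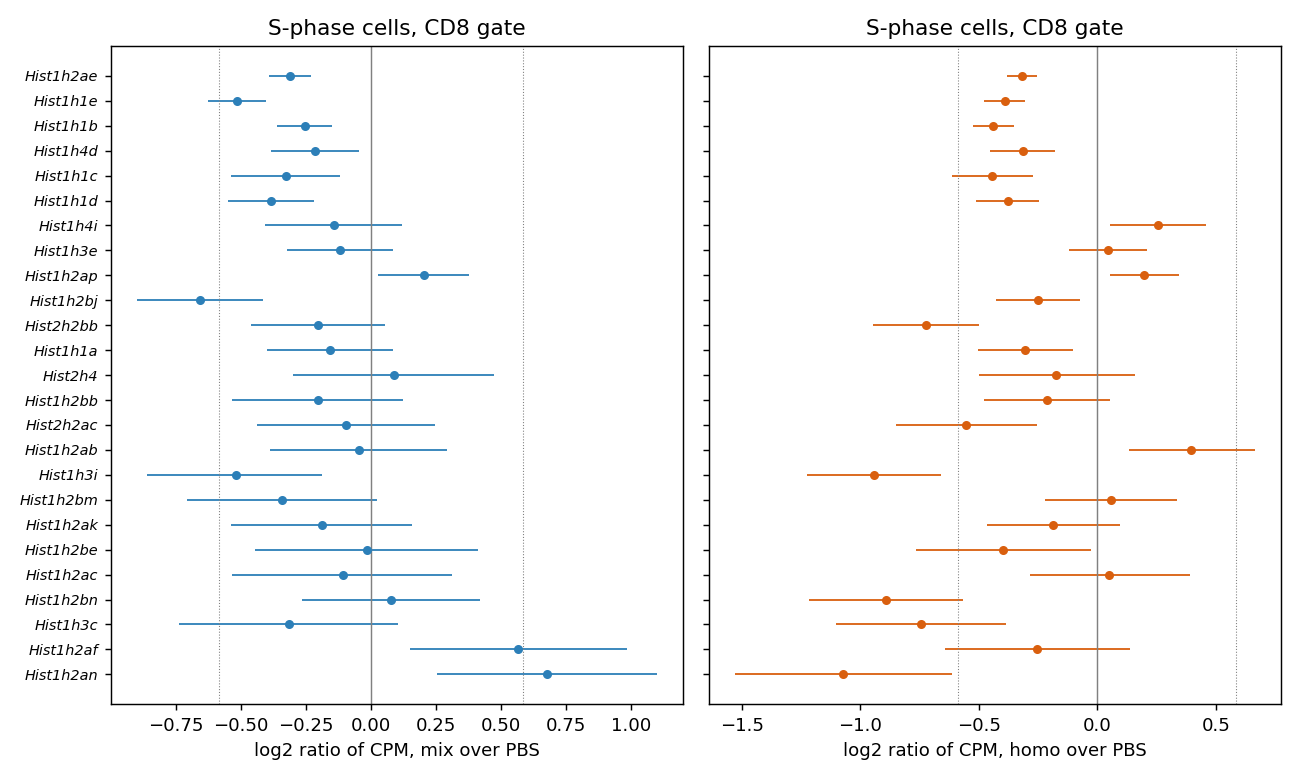
log2 ratios of CPM in CD8-gate S-phase cells, mix over PBS on the left and homo over PBS on the right, for histone genes at 20 CPM or more in any library; bars are exact conditional 95% intervals for counting error and dotted lines mark 1.5-fold. Most points lie below 0 in both panels, which share the PBS library, with Hist1h2ap above 0 in both.

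In CD8-gate cells outside the S-phase gate the direction turned: the summed level was 1.24-fold higher in homo than in PBS (log2 0.31, 0.26 to 0.35) and 1.05-fold higher in mix (0.08, 0.03 to 0.13), and homo over mix was 0.23 (0.19 to 0.28). Above the minimum lay 2, 1 and 2 members in homo over PBS, mix over PBS and homo over mix, with 0 at 1.5-fold in either direction, against 3.28% higher and 5.18% lower, 0.383% and 0.575%, and 2.77% and 4.60% of genes. Hist1h1e had 41.7 CPM in PBS, 43.4 in mix and 59.2 in homo (homo over PBS 0.51, 0.41 to 0.60), and Hist1h1c 17.4, 19.0 and 22.4 (0.36, 0.22 to 0.51). Cells in the mitosis gate only, and so outside the S-phase gate, were 1.26%, 1.45% and 2.96% of the CD8 gate in PBS, mix and homo. In cells of neither gate, the levels were 175, 188 and 217 CPM, in the same order.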

How the data were processed

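Whole-number UMI counts per gene and barcode are as the authors deposited them. The matrix headers name Cell Ranger 7.1.0, whereas Cell Ranger 2.1.1, Seurat 4.1.0 and mm39 stand in the submitters' processing notes. Sequences here come from GRCm38 (GENCODE M21, RefSeq GRCm38.p6), a different build from mm39, so no coordinates were carried over. Filters were 500 genes, 1000 UMIs and a mitochondrial share below 10%. Scrublet's own calls were 1, 0 and 0, so the highest scores were removed at 0.8% per 1000 barcodes (scanpy 1.11.5).

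UMIs were summed by library, gate and state and tested with edgeR 4.0.16 (quasi-likelihood, TMM, library as block, Benjamini-Hochberg over all genes tested), checked on simulated data. DESeq2 1.42.0 was an alternative. Where a pair of libraries is compared, CPM ratios carry exact conditional 95% intervals.

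The members and lists were chosen with earlier results of these data known. Members named with values are the 10 with most UMIs and the top of each family, the 3 highest and 3 lowest in each library comparison, and the 5 smallest p per direction in each test; up to 4 genes come from each other list. Alternatives varied normalization, filter, gates, doublets, depth, scaling and libraries.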

Additional observations from a re-analysis of the deposited data

Results flagged for a closer look

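The S-phase effect of Hist1h1e differed between gates by the interaction test in edgeR: the Foxp3-gate effect minus the CD8-gate effect was -0.94 on the log2 scale (adjusted p = 0.0270), and 1 library of the Foxp3 gate held 5 S-phase cells. The call was lost without PBS (-0.68), without mix (-0.90), without the library block (-0.92) and with the S-phase gate at 2 UMIs (-0.77).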

How the results depend on the processing

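The S-phase calls in the CD8 gate held at 53 to 56 members when a library was left out and at 46 to 57 under the other settings. Leaving out 1 library gave 17 to 32 members higher in Foxp3-gate S-phase cells, 0 to 1 higher and 0 to 3 lower between the gates, 16 to 22 higher and 2 to 4 lower against mitosis-gate cells, and 0 to 4 with a smaller S-phase effect in the Foxp3 gate. Without the low-count filter, 37 were higher in Foxp3-gate S-phase cells and 2 had the smaller effect. Relative log expression size factors, no library block, no doublet removal and the 2-UMI gate each gave 1 member higher between the gates; without the block and at the 2-UMI gate the smaller effect was called in 0. DESeq2 called 14 against mitosis-gate cells. The calls over all genes moved as well. Leaving out 1 library gave 451 to 1715 genes higher in Foxp3-gate S-phase cells and 1062 to 1345 higher against mitosis-gate cells.

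Thinning to 2000 UMIs left 11 members higher in Foxp3-gate S-phase cells and 8 against mitosis-gate cells. The genes so called were 398 of 3299 and 546 of 5684. In CD8-gate S-phase cells thinning moved the summed log2 ratio to -0.17 for homo over PBS, with 1 member higher, and to 0.045 for homo over mix, which reversed, with 3 higher. Mix over PBS had 3 lower. Thinned S-phase shares gave log2 ratios of 0.080 for homo over PBS, -0.33 for mix over PBS and 0.41 for homo over mix. Without doublet removal the S-phase sums were -0.33 for homo over PBS and -0.093 for homo over mix. The 5-UMI gate gave -0.24 for homo over PBS and, in other cells, 0.025 for mix over PBS.

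With means of per-cell CPM, homo over PBS was -0.18 with 2 higher, mix over PBS -0.11 with 3 higher, and homo over mix had 1 higher and 5 lower; in other cells the sums were 0.42 with 1 higher, 0.13 and 0.29. Scaling without mitochondrial, ribosomal and histone UMIs gave 1 higher for homo over PBS, -0.015 with 1 higher for homo over mix, and 0.36 and 0.28 in other cells. A minimum of 5 CPM gave 1 higher and 9 lower for homo over PBS, 4 and 2 for mix over PBS, and 2 and 9 for homo over mix; in other cells mix over PBS had 1 higher and homo over mix 2 higher and 1 lower. At 50 CPM, homo over PBS had 1 lower, mix over PBS 0 higher and homo over mix 0 lower. At 2-fold, homo over PBS had 0 lower, mix over PBS 0 in either direction and homo over mix 1 lower.

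The following were added after the data were seen. With the gate read from thinned cells, homo over PBS was -0.026 with 2 higher, mix over PBS -0.095 with 3 higher, and homo over mix 0.070, reversed, with 2 higher; other cells gave 0.51 with 2 higher for homo over PBS, 0.48 with 3 higher for homo over mix, and -0.084, reversed, for Hist1h1e in mix over PBS. Outside the mitosis gate, homo over PBS was -0.15 with 1 lower, mix over PBS -0.33 with 0 higher and 5 lower, Hist1h2ap in mix over PBS -0.16, reversed, and homo over mix 0.18, reversed, with 3 higher and 1 lower. Inside it, homo over PBS was -0.46 with 8 lower, mix over PBS -0.14 with 3 higher and 0 lower, and homo over mix -0.32 with 9 lower. The cause of these changes was not tested. Member counts of the library comparisons under the alternatives of this section are given without the share of all genes called at each setting. They are therefore not read against a background.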

Other observations

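Hist1h2bc, an H2B gene with a spliced, longer annotated transcript and no hairpin in it, stood apart in cells outside the S-phase gate. In the CD8 gate it read 4.35 CPM in PBS, 9.14 in mix and 4.47 in homo; mix over PBS was 1.07 (0.79 to 1.36) and homo over PBS 0.04 (-0.28 to 0.35) on the log2 scale. It lies below the 20 CPM minimum and was picked after its values were seen. In the CD4 gate it read 3.27, 7.73 and 3.99 CPM from 3, 8 and 1 UMIs, and in the Foxp3 gate 7.82, 12.9 and 11.8 CPM from 22, 39 and 5. Mitosis-only cells of the CD8 gate gave the order 44.1, 81.8 and 20.6 CPM. With 1 library per group these are values without a replicate check.

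Cells outside the 3 gates, 938, 885 and 592 in PBS, mix and homo, also carried the S-phase pattern: 1967, 2753 and 1471 CPM of summed histone UMIs in 36, 29 and 77 S-phase cells, and 245, 242 and 297 in the others.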
